A study of Mus musculus with 8 samples.

Results

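The glucocorticoid receptor gene Nr3c1, the cortisone reductase gene Hsd11b1, 5 known receptor target genes (Fkbp5, Tsc22d3, Zbtb16, Sgk1 and Errfi1) and the metallothionein genes Mt1 and Mt2 were followed in brown adipose tissue (BAT) of lean and obese mice. These 9 genes were taken by name from the 31053 genes of the count table, and their raw counts were compared between genotypes. BAT of 4 wild-type (WT) and 4 db/db mice, all C57BL6/J by strain label, 8 weeks old, male and on a normal diet, was profiled by bulk RNA-seq to learn how obesity and type 2 diabetes alter this fat depot. db/db mice carry an inherited mutation of the leptin receptor gene Lepr in every cell, whereas the gene is intact in WT mice, and the labels give no treatment for either genotype. Per the study's methods, tissue was harvested after a fast. The labels also name a stromal vascular fraction, which by definition lacks mature adipocytes, yet the libraries held abundant adipocyte RNA, with a summed level of 8 brown adipocyte markers (Ucp1 and Cidea among them) of 7247 to 8961 CPM (counts scaled to library size) in WT libraries against 3036 to 5561 CPM in db/db libraries. The study's methods text names different suppliers for WT and db/db mice, while its resource list gives the supplier of the db/db mice for C57BL/6J as well, so whether supplier differed with genotype is unclear. The methods text also gives the db/db mice a strain name, B6.BKS(D)-Leprdb/J, other than the C57BL6/J of the WT mice. Strain background may therefore differ with genotype.

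Glucocorticoids (corticosterone in the mouse) enter cells and bind the receptor encoded by Nr3c1, which is held by heat shock protein chaperones until it binds hormone and then moves to the nucleus to switch target genes on or off. Inside fat cells the reductase encoded by Hsd11b1 regenerates active corticosterone from its inert keto form, and rodent brown fat is a tissue in which glucocorticoids are known to promote lipid storage and dampen heat production. Metallothioneins are small cysteine-rich proteins that bind zinc and copper, and their genes are induced by zinc through the metal-responsive factor MTF1 and also by glucocorticoids.

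Library totals were 2374079 to 2615009 counts for WT and 2382722 to 3240074 counts for db/db. A count of 3, taken as the most that cannot be told from 0, corresponded to 0.902 to 1.33 CPM. Of 9264 genes with enough counts to be tested, 2568 (27.7%) differed between genotypes at an adjusted p under 0.05 in edgeR's quasi-likelihood test with Benjamini-Hochberg adjustment, 1466 of them (15.8% of those tested) higher and 1102 (11.9%) lower in db/db. Lepr held 0 counts in all 8 libraries and therefore gave no check of the genotype labels. All adjusted p-values below come from that test over the 9264 genes, and log2 fold changes are db/db minus WT.

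Mt2 was the one gene of the 9 that passed the test, and it was higher in db/db. The other 8 genes did not pass, and their log2 fold changes ran from -0.81 for Sgk1 to 0.36 for Tsc22d3. The share of 1 in 9 (11.1%) stood beside 27.7% of all tested genes, an order that turned with all genes of at least 1 count tested (4 of 9, 44.4%, against 19.3%) and without WT replicate 1 (3 of 9, 33.3%, against 24.9%). The median log2 fold change of the 9 genes was 0.18, against 0.01 over all tested genes, with 5 values above 0 and 4 below. The receptor, its reductase and its 5 classical targets therefore gave no call in either direction, and the 9 genes showed no common direction.

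**Figure D1:**
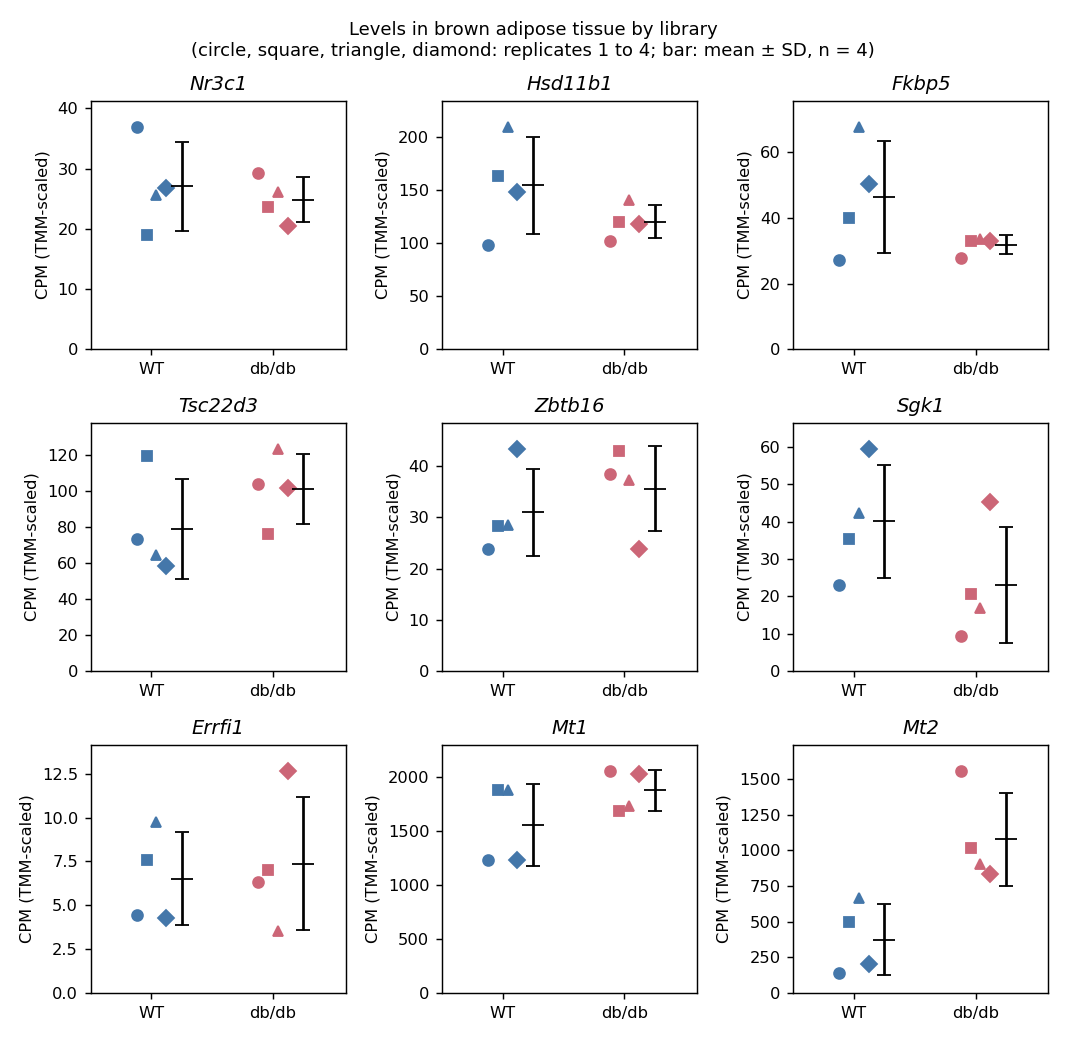
Each panel plots the level of 1 gene (vertical axis, CPM scaled by TMM factors) in 4 WT libraries (blue) and 4 db/db libraries (red), with symbols for replicates 1 to 4 and bars for the mean ± SD. The genotypes separate for Mt2, with WT libraries at 136.4 to 666.2 CPM and db/db libraries at 834.8 to 1557 CPM, and overlap for the other 8 genes.

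Mt1 and Mt2 lie beside each other on chromosome 8 on the forward strand, Mt2 (ENSMUSG00000031762) at chr8:94172664-94173568 and Mt1 (ENSMUSG00000031765) at chr8:94179082-94180327 (mm10). There are 5513 bases and 0 annotated genes between them. Their coding sequences, shown because the result turns on telling these neighbours apart by sequence, are 183 bases each without the stop codon and are split over 3 coding exons, spanning chr8:94172848-94173424 for Mt2 and chr8:94179311-94180190 for Mt1. They are given 5′ to 3′ from the GENCODE M21 transcripts Mt2-201 and Mt1-201, with capitals at the 38 bases that differ between the genes.
Mt2: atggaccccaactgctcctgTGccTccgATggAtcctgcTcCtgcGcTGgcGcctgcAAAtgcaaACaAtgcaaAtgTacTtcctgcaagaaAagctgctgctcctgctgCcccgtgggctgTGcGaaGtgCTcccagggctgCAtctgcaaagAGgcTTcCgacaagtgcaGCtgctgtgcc
Mt1: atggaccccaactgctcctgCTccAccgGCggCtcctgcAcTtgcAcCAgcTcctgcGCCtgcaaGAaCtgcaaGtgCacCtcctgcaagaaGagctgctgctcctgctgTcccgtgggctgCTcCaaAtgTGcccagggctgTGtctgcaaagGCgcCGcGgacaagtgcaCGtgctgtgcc
The coding sequences were identical at 145 bases (79.2%), and the longest stretch without a difference was 20 bases, shorter than the 75-base reads. Over its annotated transcripts, Mt1 shared 0 of 1317 windows of 75 bases with any other gene's transcripts. Mt2 shared 160 of 529 windows (30.2%) with 1 gene, the antisense transcript Gm45774, which overlaps it. Gm45774 held 0 to 2 counts per library, but whether counting used the strand is not given in the sources used here, so reads of Mt2 and Gm45774 cannot be told apart and the level of Mt2 is uncertain to that extent. Copies of either gene outside annotated transcripts were not examined.

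Mt2 stood at 136.4, 495.5, 666.2 and 200.3 CPM in WT replicates 1 to 4 and at 1557, 1017, 906.9 and 834.8 CPM in db/db replicates 1 to 4. Every db/db library was above every WT library, a separation that 28.1% of all tested genes showed in either direction and 15.3% in this one. The WT mean of 374.6 ± 250 CPM rose to 1079 ± 327 CPM in db/db (SD, n = 4 each), a 2.88-fold increase (log2 fold change 1.53, SE 0.35, 95% interval 0.78 to 2.27, adjusted p = 0.00353). Among the 9264 tested genes, 6.11% had a larger log2 fold change than Mt2. The WT libraries were far apart, the highest being 4.89 times the lowest, against 1.86 times among the db/db libraries. Leaving out each library in turn gave log2 fold changes of 1.23 to 1.94, all with an adjusted p under 0.05, but the call was lost with a skeletal muscle marker score as covariate (0.85, SE 0.57, adjusted p = 0.476). With that covariate 6.0% of all tested genes passed, against 27.7% without it.

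Mt1, the neighbour of Mt2, stood at 1231, 1886, 1881 and 1232 CPM in WT replicates 1 to 4 and at 2057, 1686, 1738 and 2032 CPM in db/db replicates 1 to 4. The WT libraries fell into a low and a high pair, and the high pair lay inside the db/db range. The means were 1558 ± 376 and 1878 ± 193 CPM (SD, n = 4 each), and the log2 fold change of 0.27 (SE 0.16, 95% interval -0.08 to 0.62) did not pass the test (adjusted p = 0.242) and ran from 0.15 to 0.36 when 1 library was left out. WT replicates 1 and 4 were lowest in WT for both metallothionein genes, whereas in db/db replicate 4 was second highest for Mt1 and lowest for Mt2.

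The difference between the genes was then tested within libraries, since the ratio of Mt2 to Mt1 counts does not depend on how libraries are scaled. There were 337, 1174, 1773 and 472 Mt2 counts against 3043, 4468, 5007 and 2903 Mt1 counts in WT replicates 1 to 4, ratios of 0.111, 0.263, 0.354 and 0.163. In db/db replicates 1 to 4 there were 5174, 3197, 2046 and 2244 Mt2 counts against 6838, 5299, 3922 and 5462 Mt1 counts, ratios of 0.757, 0.603, 0.522 and 0.411. All db/db ratios were above all WT ratios. The mean log2 ratio of WT libraries was -2.31 ± 0.74 and that of db/db libraries -0.84 ± 0.37 (SD, n = 4 each), differing by 1.47 or 2.76-fold, with an exact two-sided permutation p of 0.0286, the smallest that 4 against 4 libraries allow. The exact p was 0.0286 or 0.0571 when 1 library was left out, and 0.125 with replicate numbers as blocks. A count ratio also depends on how each transcript is captured, so the ratio itself is not a ratio of transcript numbers, and only its difference between genotypes is read here.

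**Figure D2:**
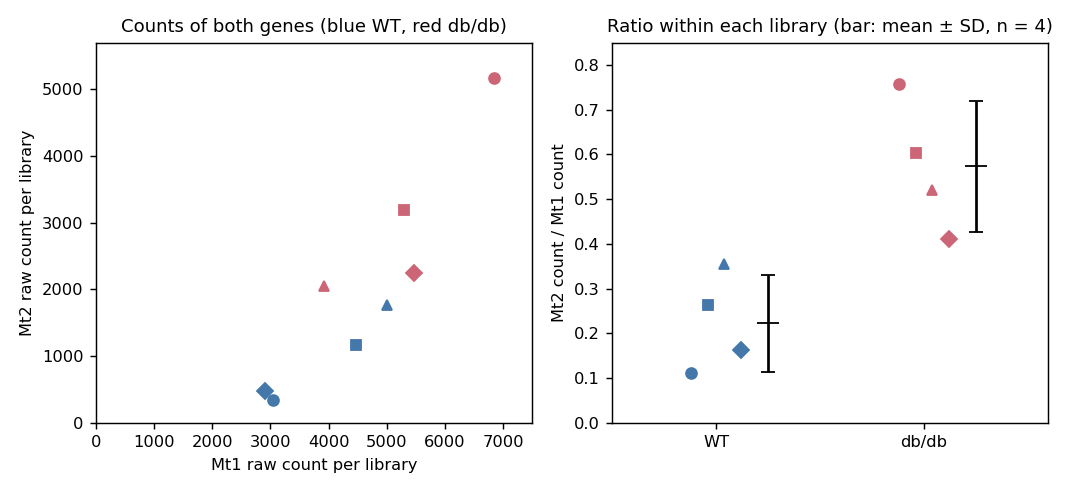
The left panel plots raw Mt2 counts (vertical axis) against raw Mt1 counts (horizontal axis) per library, and the right panel plots their ratio in each library with the mean ± SD of 4 libraries (blue WT, red db/db, symbols for replicates 1 to 4). The ratio lies between 0.111 and 0.354 in WT and between 0.411 and 0.757 in db/db, without overlap.

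Markers of other cell types moved between the genotypes beside Mt2. In bulk tissue, fewer cells of a type and less RNA per cell cannot be told apart. The summed level of 10 macrophage markers was 156.6 to 212.9 CPM among WT libraries against 734.3 to 1293 CPM among db/db libraries, and 8 of the 9 tested rose (not Cd14). All 12 skeletal muscle markers rose, with sums of 436.2, 910.3, 680.5 and 1559 CPM in WT replicates 1 to 4 and of 11426, 3160, 5114 and 2301 CPM in db/db replicates 1 to 4. The library with the highest muscle sum, db/db replicate 1, also had the highest Mt2, and the WT library with the lowest muscle sum, replicate 1, had the lowest Mt2. WT replicate 4, with the highest muscle sum in WT, had the second lowest Mt2. All 6 fibroblast markers rose too, with sums of 599.7 to 741.0 CPM for WT and 1134 to 2478 CPM for db/db, while 4 of 6 tested brown adipocyte markers fell. Of 6 general adipocyte markers, Plin1 and Fabp4 rose and 4 did not pass, with sums of 8627 to 15167 CPM for WT and 14399 to 19291 CPM for db/db. The sums of 6 endothelial markers, of which 1 fell, were 393.8 to 460.5 CPM for WT and 288.6 to 334.8 CPM for db/db, and those of 6 neutrophil markers, of which 2 were tested and 1 rose, were 0.752 to 13.2 and 23.0 to 27.2 CPM. The 5 erythroid markers had log2 fold changes of 0.78 to 0.87, of which that of Hbb-bt passed (adjusted p = 0.0433), with sums of 3106 to 8715 CPM for WT and 6472 to 17009 CPM for db/db, the highest in db/db replicate 4, which had the lowest Mt2 of the db/db libraries. The sums of 6 lymphocyte markers were 1.62 to 5.91 CPM for WT and 0.372 to 7.52 CPM for db/db, none was tested, and Cd79a was at 0 throughout, the one marker of these lists to be so. The library with the highest Mt2, db/db replicate 1, also had the highest macrophage and fibroblast sums (1293 and 2478 CPM) and the lowest brown adipocyte sum (3036 CPM). WT replicate 1 was the lowest WT library for the general adipocyte and erythroid sums (8627 and 3106 CPM) but the highest for the macrophage sum (212.9 CPM). Muscle was thus not the only list to run with Mt2 in these libraries. With a muscle score (the mean log2 CPM of the 12 muscle markers) as covariate in the fit, the log2 fold change of Mt2 was the 0.85 given above. The part of other cell types in the Mt2 difference was otherwise not tested.

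**Figure D3:**
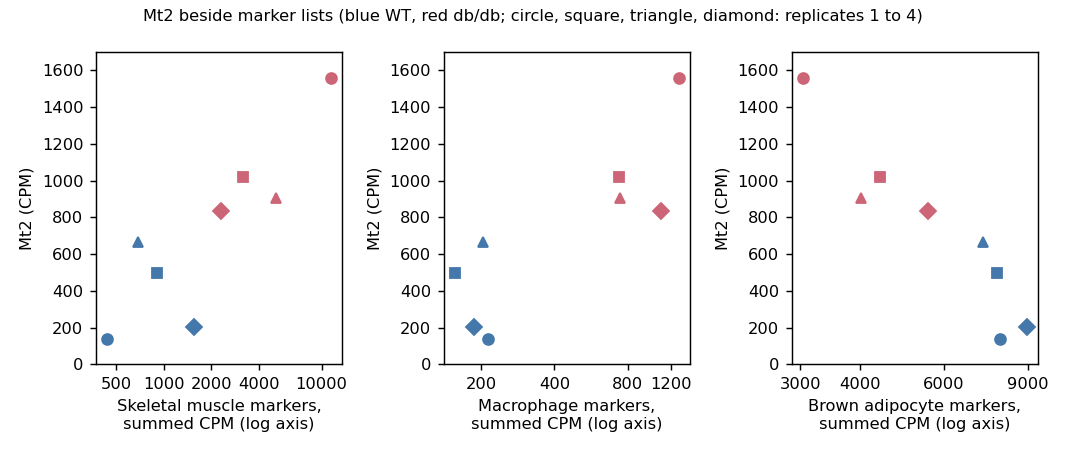
Each panel plots Mt2 (vertical axis, CPM) against the summed CPM of a marker list (horizontal log axis) for skeletal muscle, macrophages and brown adipocytes in the 8 libraries (blue WT, red db/db, symbols for replicates 1 to 4). The db/db libraries lie at higher muscle sums (2301 to 11426 CPM), higher macrophage sums (734.3 to 1293 CPM) and lower brown adipocyte sums (3036 to 5561 CPM) than the WT libraries.

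Nr3c1 (ENSMUSG00000024431, chromosome 18), which encodes the glucocorticoid receptor, stood at 36.8, 19.0, 25.6 and 26.7 CPM in WT replicates 1 to 4 and at 29.2, 23.5, 26.2 and 20.5 CPM in db/db replicates 1 to 4. The db/db libraries lay within the WT range. The means were 27.0 ± 7.37 and 24.8 ± 3.72 CPM (SD, n = 4 each), with a log2 fold change of -0.12 (SE 0.21, 95% interval -0.57 to 0.33, adjusted p = 0.720). The sign of this value rested on WT replicate 1, the highest library, without which it was 0.04.

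Hsd11b1 (ENSMUSG00000016194, chr1:193221634-193264075, reverse strand), the reductase gene, stood at 97.9, 162.9, 208.9 and 147.7 CPM in WT replicates 1 to 4 and at 101.7, 120.3, 140.5 and 118.3 CPM in db/db replicates 1 to 4. Of the WT libraries, replicates 2 to 4 were above every db/db library and replicate 1 was below them all. The means were 154.4 ± 45.7 and 120.2 ± 15.9 CPM (SD, n = 4 each), and the log2 fold change of -0.36 (SE 0.18, 95% interval -0.75 to 0.03) did not pass the test (adjusted p = 0.156). Without WT replicate 1 it was -0.55 with an adjusted p of 0.0190, and with all genes of at least 1 count tested it was -0.41 with an adjusted p of 0.0484, whereas without WT replicate 3 it was -0.20 with an adjusted p of 0.439. Hsd11b1 overlaps Lamb3, which held 5 to 28 counts per library, so its level is uncertain to that extent.

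The partners of these proteins were read from a list of 12 steroid receptor and steroid enzyme genes, of which 4 had enough counts to be tested and 3 passed (75% of those tested, beside 27.7% of all tested genes). H6pd, whose product supplies the reductase with NADPH inside the endoplasmic reticulum, rose from 80.2 ± 15.1 to 144.6 ± 17.2 CPM (log2 fold change 0.85, SE 0.15, adjusted p = 0.000436). Esr1, the estrogen receptor alpha gene, fell from 15.9 ± 3.73 to 7.49 ± 2.33 CPM (log2 fold change -1.08, SE 0.28, adjusted p = 0.00854). Hsd17b12, an enzyme of fatty acid elongation that can also reduce estrone, fell from 173.5 ± 29.5 to 107.6 ± 16.0 CPM (log2 fold change -0.69, SE 0.15, adjusted p = 0.00216). All values are means ± SD of 4 libraries, and none of the 3 calls passed with the muscle score as covariate, where the log2 fold changes were 0.67 (SE 0.27) for H6pd, -0.39 (SE 0.49) for Esr1 and -0.37 (SE 0.25) for Hsd17b12. With that covariate 6.0% of all tested genes passed. Nr3c2, the mineralocorticoid receptor gene, held 1 to 7 counts per library and was not tested. Hsd11b2, whose enzyme runs the opposite reaction to Hsd11b1, held 0 counts in all libraries, as did 4 others of the list, including both genes of the last steps of adrenal steroid synthesis, Cyp11b1 and Cyp11b2. A count of 0 allows up to 3 counts per library, or 1.33 CPM.

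Fkbp5 (ENSMUSG00000024222, chr17:28399094-28517527, reverse strand) encodes a co-chaperone that lowers hormone binding by the receptor and is one of its most widely used target genes. Its level was 27.1, 40.1, 67.6 and 50.5 CPM in WT replicates 1 to 4 and 27.7, 33.1, 33.7 and 33.1 CPM in db/db replicates 1 to 4. As for Hsd11b1, WT replicates 2 to 4 were above every db/db library and WT replicate 1 was below them all. The db/db libraries were close together, with a coefficient of variation of 8.85% against 37.0% in WT. The means were 46.3 ± 17.1 and 31.9 ± 2.82 CPM (SD, n = 4 each), and the log2 fold change of -0.54 (SE 0.22, 95% interval -1.01 to -0.07) did not pass after adjustment (adjusted p = 0.0793). It passed without WT replicate 1 (-0.75, adjusted p = 0.00974) and with all genes of at least 1 count tested (-0.59, adjusted p = 0.0144), whereas without WT replicate 3 it was -0.32 with an adjusted p of 0.289. Fkbp5 overlaps 4 small annotated genes that were not in the count table.

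Tsc22d3 (ENSMUSG00000031431, X:140539528-140600659, reverse strand) encodes GILZ, a leucine zipper protein that carries part of the anti-inflammatory action of glucocorticoids. It stood at 73.2, 119.4, 64.6 and 58.2 CPM in WT replicates 1 to 4 and at 103.8, 76.0, 123.2 and 101.6 CPM in db/db replicates 1 to 4. Apart from WT replicate 2, the second highest of all 8 libraries, every db/db library was above every WT library. The means were 78.9 ± 27.7 and 101.2 ± 19.4 CPM (SD, n = 4 each), with a log2 fold change of 0.36 (SE 0.20, 95% interval -0.07 to 0.78, adjusted p = 0.207). Without WT replicate 2 the log2 fold change was 0.62 with an adjusted p of 0.0195, whereas it was 0.23 without WT replicate 4 (adjusted p = 0.492), 0.25 without db/db replicate 3 (adjusted p = 0.450) and 0.22 with the muscle score as covariate (adjusted p = 0.805). Thus Fkbp5 and Tsc22d3 lay on opposite sides of 0, and neither passed with all libraries.

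Zbtb16 (ENSMUSG00000066687, chr9:48654297-48836222, reverse strand), the gene of the zinc finger repressor PLZF, stood at 23.9, 28.3, 28.6 and 43.3 CPM in WT replicates 1 to 4 and at 38.5, 42.9, 37.2 and 23.8 CPM in db/db replicates 1 to 4. The lowest and the highest of the 8 libraries were db/db replicate 4 and WT replicate 4, each outside the range of the other libraries of its own genotype. The means were 31.0 ± 8.47 and 35.6 ± 8.25 CPM (SD, n = 4 each), with a log2 fold change of 0.21 (SE 0.22, 95% interval -0.25 to 0.66, adjusted p = 0.525) that turned to -0.40 (adjusted p = 0.602) with the muscle score as covariate. Leaving out 1 library gave 0.077 (without WT replicate 1) to 0.40 (without WT replicate 4).

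Sgk1 (ENSMUSG00000019970, chr10:21882184-21999903, forward strand) encodes a kinase named for its induction by serum and glucocorticoids. It stood at 23.1, 35.5, 42.5 and 59.4 CPM in WT replicates 1 to 4 and at 9.33, 20.7, 16.8 and 45.4 CPM in db/db replicates 1 to 4. Among the db/db libraries, replicates 1 to 3 were below every WT library, while replicate 4 was the second highest of all 8. The means were 40.1 ± 15.2 and 23.1 ± 15.6 CPM (SD, n = 4 each), and the log2 fold change of -0.81 (SE 0.36, 95% interval -1.56 to -0.05) did not pass after adjustment (adjusted p = 0.103). It passed without db/db replicate 4 (-1.37, adjusted p = 0.00320), with all genes of at least 1 count tested (-0.85, adjusted p = 0.000426) and with replicate numbers as blocks. It was -0.53 without db/db replicate 1 (adjusted p = 0.229), -0.57 without WT replicate 4 (adjusted p = 0.307) and -0.31 (adjusted p = 0.807) with the muscle score as covariate.

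Errfi1 (ENSMUSG00000028967, chr4:150853919-150868892, forward strand), a feedback inhibitor of the epidermal growth factor receptor, was the lowest counted of the 9 genes, at 8 to 34 counts per library. Its level was 4.45, 7.60, 9.77 and 4.24 CPM in WT replicates 1 to 4 and 6.32, 7.00, 3.55 and 12.6 CPM in db/db replicates 1 to 4. The db/db libraries spanned the whole WT range. The means were 6.52 ± 2.66 and 7.38 ± 3.82 CPM (SD, n = 4 each). The log2 fold change of 0.18 (SE 0.40, 95% interval -0.67 to 1.02, adjusted p = 0.786) left both a fall and a rise within its interval, and it turned to -0.20 without db/db replicate 4 and was 0.89 (SE 0.66, adjusted p = 0.533) with the muscle score as covariate.

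**Figure D4:**
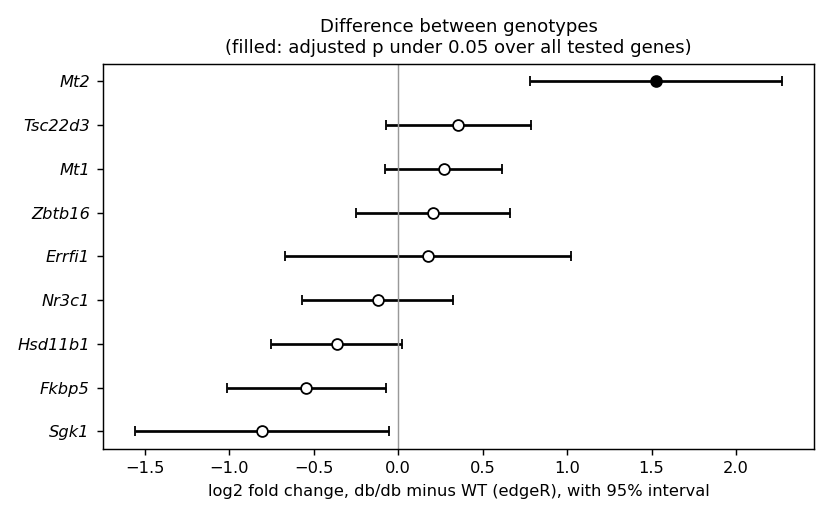
The plot gives the log2 fold change, db/db minus WT, of each gene (horizontal axis) with its 95% interval, ordered by size, and fills the points with an adjusted p under 0.05. The Mt2 interval (0.78 to 2.27) lies above 0, and those of Fkbp5 and Sgk1 lie below 0 although neither gene passed after adjustment.

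Libraries of 1 genotype differed from each other across these genes in ways that the genotype did not set. WT replicate 1 was the lowest WT library for 6 of the 9 genes (Hsd11b1, Fkbp5, Zbtb16, Sgk1, Mt1 and Mt2) and the highest for Nr3c1, and WT replicate 3 was the highest for 4 (Hsd11b1, Fkbp5, Errfi1 and Mt2). In db/db, replicate 1 was lowest for Hsd11b1, Fkbp5 and Sgk1 and highest for Nr3c1, Mt1 and Mt2. The summed level of 8 early response genes, which rise within minutes of handling or stress, was 81.7, 395.9, 248.0 and 158.3 CPM in WT replicates 1 to 4 and 128.8, 281.2, 111.3 and 243.7 CPM in db/db replicates 1 to 4. WT replicate 1 was the lowest on this list, and WT replicate 2, the highest WT library for Tsc22d3, was the highest. In db/db the order was the opposite. There replicate 2 had the highest sum and the lowest Tsc22d3 (76.0 CPM), and replicate 3 the lowest sum and the highest Tsc22d3 (123.2 CPM). Of the 6 genes of the list that were tested, 2 passed. Nr4a1 stood at 1.21, 67.1, 101.8 and 67.5 CPM in WT replicates 1 to 4 and at 3.91, 11.8, 1.33 and 15.6 CPM in db/db replicates 1 to 4 (log2 fold change -2.84, adjusted p = 0.00439). WT replicate 1 and db/db replicate 3 each held 3 counts, at the floor, so that the genotypes overlapped. Atf3, at 0 to 4.67 CPM in WT and 2.22 to 26.0 CPM in db/db, also overlapped between the genotypes (log2 fold change 2.25, adjusted p = 0.0136). The calls of Nr4a1 and Atf3 were not refitted without single libraries. The part of the early response in the levels of Tsc22d3, Sgk1 and Errfi1 was not tested.

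The pattern of each gene over the 8 libraries was compared with that of every tested gene of at least 10 CPM on average (6698 genes, or 6699 for Errfi1), by the root mean square difference of log2 CPM after each gene's own mean was removed. The closest patterns to Mt2 were those of Tshr (0.40), the thyrotropin receptor gene, and Bmp4 (0.41), a secreted growth factor gene, which both rose in db/db (log2 fold changes 1.44 and 2.24, adjusted p = 0.00539 and 5.57e-05). Mt1 lay nearer to its closest genes, Ammecr1l (0.08) and Rpl37a (0.10), than Mt2 did, and the distance between Mt1 and Mt2 was 0.89. The closest pair among the 9 genes was Hsd11b1 and Fkbp5 (0.16), and the mitochondrial ribosomal protein gene Mrpl39 was the closest gene to both (0.10 and 0.16). Sgk1 was closest to Zfp703 (0.27), which fell in db/db (log2 fold change -0.94, adjusted p = 0.0118). Closest to Nr3c1, Tsc22d3, Zbtb16 and Errfi1 were Ccdc97 (0.13), Cnnm3 (0.13), Pigp (0.16) and Epc1 (0.29). The genes second in order, where not yet named, were Marf1 for Nr3c1, Mettl26 for Hsd11b1, Erc1 for Tsc22d3, Rab33b for Zbtb16, 1700017B05Rik for Sgk1 and Bag5 for Errfi1. These distances describe the same 8 libraries as the tests above and carry no p-value.

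A list of 28 other glucocorticoid receptor targets was read in the same way, and 26 of them had enough counts to be tested. In db/db 4 rose, 4 fell and 18 did not pass. The share that passed, 30.8%, stood beside 27.7% of all tested genes, and the list median of -0.08 beside 0.01. More of the list passed with all genes of at least 1 count tested (14 of 28, 50%, against 19.3% of all genes) and without db/db replicate 4 (12 of 25, 48%, against 26.1%). So it did with replicate numbers as blocks (11 of 26, 42.3%, against 27.6%).

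The 4 target genes that rose were Anxa1, Cd163, Cebpd and Rhob. Anxa1, an annexin with anti-inflammatory roles, rose from 2.04 ± 0.39 CPM in WT to 38.5 ± 14.0 CPM in db/db (log2 fold change 4.22, SE 0.34, adjusted p = 8.87e-08). It held 4 to 6 counts per WT library, just above the floor of 3, so the size of this rise is uncertain. Cd163, the haemoglobin scavenger receptor of macrophages, rose from 9.85 ± 2.11 to 28.9 ± 10.5 CPM (log2 fold change 1.56, SE 0.27, adjusted p = 0.000346), in the same libraries in which the macrophage markers rose. Cebpd, a transcription factor gene of early adipocyte differentiation, rose from 14.0 ± 2.54 to 25.3 ± 3.87 CPM (log2 fold change 0.85, SE 0.21, adjusted p = 0.00589). Rhob, a small GTPase gene, rose from 53.7 ± 10.4 to 92.7 ± 21.0 CPM (log2 fold change 0.78, SE 0.19, adjusted p = 0.00407).

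The 4 target genes that fell were Glul, Rgs2, Lpin1 and Pck1, of which Glul, Lpin1 and Pck1 encode metabolic enzymes. Glul, glutamine synthetase, fell from 3347 ± 391 to 970.1 ± 159 CPM (log2 fold change -1.79, SE 0.15, adjusted p = 2.28e-07). Lpin1, a phosphatidate phosphatase of triglyceride synthesis, fell from 311.7 ± 84.7 to 172.1 ± 29.7 CPM (log2 fold change -0.86, SE 0.18, adjusted p = 0.00192). Pck1, which makes glycerol backbones for triglyceride in fat as cytosolic phosphoenolpyruvate carboxykinase, fell from 3179 ± 1049 to 1787 ± 527 CPM (log2 fold change -0.83, SE 0.23, adjusted p = 0.0132). Rgs2, a brake on G protein signalling, fell from 1062 ± 474 to 539.1 ± 191 CPM (log2 fold change -0.98, SE 0.29, adjusted p = 0.0173), a call that was lost in DESeq2 (adjusted p = 0.0772), without WT replicate 1 (adjusted p = 0.0592) and without WT replicate 2 (adjusted p = 0.0669). Of the 8 calls, those of Anxa1 and Glul passed with the muscle score as covariate, with log2 fold changes of 3.70 and -1.65. That was 2 of 26 tested (7.69%), beside 6.0% of all tested genes with that covariate. The other 6 did not pass there, but the values of Rhob (0.87, SE 0.31), Lpin1 (-0.83, SE 0.31) and Pck1 (-0.88, SE 0.39) were about as large as without the score and had larger SEs, while Cd163 (1.04, SE 0.42), Cebpd (0.56, SE 0.38) and Rgs2 (-0.60, SE 0.54) were smaller.

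Per1, Klf9 and Dusp1, which glucocorticoids induce rapidly, did not pass. Per1, a clock gene, differed by -0.08 on the log2 scale (SE 0.20, adjusted p = 0.801), and Klf9, a zinc finger factor gene, by 0.11 (SE 0.14, adjusted p = 0.609), or 0.037 without WT replicate 3 to 0.21 without WT replicate 2. Per1 was highest in WT replicate 2 at 43.0 CPM, against 25.5 to 27.4 CPM in the other WT libraries, and without that library its value turned to 0.12, as it did to 0.06 with the muscle score as covariate. Dusp1, a phosphatase gene that limits MAP kinases, gave 0.76 (SE 0.41, adjusted p = 0.186) with all libraries, 1.25 (adjusted p = 0.0388) without WT replicate 2, 0.44 (adjusted p = 0.430) without WT replicate 1 and 0.42 (adjusted p = 0.524) without db/db replicate 2.

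Of 15 receptor chaperones and coregulators, all tested, Fkbp4 fell and 14 did not pass (6.67% against 27.7% of all tested genes, median log2 fold change 0.08). The count of 1 was 2 or 3 under 10 of the 11 settings that kept all libraries (3 in limma-voom, with all genes of at least 1 count and with the replicate block) and 2 or 3 without WT replicate 2 or 3 or db/db replicate 1, 2 or 3. Fkbp4, which encodes the co-chaperone that takes the place of the Fkbp5 product on the receptor when hormone binds, fell from 118.9 ± 12.2 to 80.9 ± 13.3 CPM (log2 fold change -0.56, SE 0.15, adjusted p = 0.00905). Hsp90ab1, the main chaperone gene of the list, gave a log2 fold change of -0.17 (SE 0.14, adjusted p = 0.387). The log2 fold changes of Fkbp5 and Fkbp4 were thus -0.54 and -0.56, and of the pair Fkbp4 passed the test, though not with the muscle score as covariate, where its value was the same and its SE larger (-0.56, SE 0.26, adjusted p = 0.263). With that covariate 6.0% of all tested genes passed.

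The genes of zinc and metal handling, the other known input to the metallothioneins, were read from a list of 27, of which 15 had enough counts to be tested, 5 were at 0 in all libraries and 8, these 5 included, held at most 3 counts in any library. Slc39a11, a zinc transporter gene, rose from 9.73 ± 2.50 to 23.7 ± 2.98 CPM (log2 fold change 1.28, SE 0.23, adjusted p = 0.000507), a call lost with the muscle score as covariate (0.95, SE 0.41, adjusted p = 0.212), and the other 14 did not pass (6.67% against 27.7%, median 0.21). The share of all tested genes that passed with the muscle score was 6.0%. With 10 counts required in every library, 3 of the 11 tested passed (27.3%, beside 27.5% of all genes), and without WT replicate 3 it was 3 of 15 (20% beside 26.0%). Mtf1, the zinc-sensing factor gene, stood at 7.19 ± 1.04 CPM in WT and 11.4 ± 1.73 CPM in db/db without overlap between the genotypes, as did 15.3% of tested genes in this direction (log2 fold change 0.67, SE 0.27, adjusted p = 0.0791). Slc30a1, the zinc exporter gene that MTF1 also drives, stood at 17.6 ± 3.36 CPM in WT and 12.2 ± 2.51 CPM in db/db, again without overlap but in the opposite direction, as 12.7% of tested genes did (log2 fold change -0.54, SE 0.24, adjusted p = 0.111). The remaining metallothionein genes were at the detection limit, Mt3 at 0 to 2 counts per library and Mt4 at 0. Klf9, Dusp1, Mtf1, Slc30a1, Anxa1, Cebpd, Glul and Slc39a11 overlap other annotated genes, and their levels are uncertain to that extent.

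**Figure D5:**
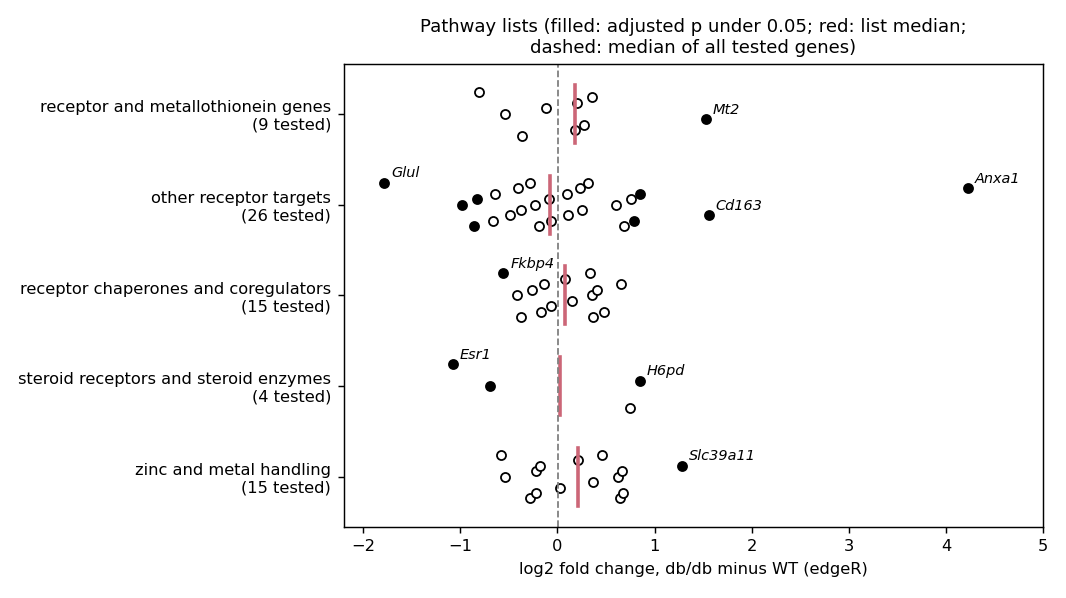
Each point is a tested gene, placed by its log2 fold change, db/db minus WT (horizontal axis), in the row of its list, filled where the adjusted p is under 0.05. Red bars are list medians and the dashed line is the median of all 9264 tested genes (0.01). List medians run from -0.08 for the other receptor targets to 0.21 for zinc and metal handling, and Anxa1 (4.22) and Glul (-1.79) mark the ends.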

How the data were processed

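Bulk RNA-seq of BAT from 4 WT and 4 db/db mice was analysed, with genotypes and replicate numbers taken from the sample titles. Libraries were single-end reads of 75 cycles from a commercial mRNA-seq service. Per the study's methods, the authors trimmed reads with bbduk, aligned them to mm10 with STAR and counted them per gene with HTSeq-count, and deposited raw counts, whereas the submitters' processing notes name Trimmomatic, HISAT2 and DESeq2. The collapse of molecular identifiers and the strand setting are not given in the sources used here, so counts may hold PCR copies, and floors cover counting error only. The authors also deposited log2 normalized values, which equalled log2 of the count divided by a size factor plus 1 and served in an alternative only. A sample sheet was not used.

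The 9 genes and all gene lists were chosen with earlier results of these data known. Of 31053 genes, 30934 matched GENCODE M21 by identifier, leaving 119 that made up 0.00758% of a library's counts or less. filterByExpr (minimum count 10, minimum total 15) left 9264 genes, including all 9. After TMM scaling, edgeR 4.0.16 (R 4.3.3) was fitted for its quasi-likelihood F test with genotype as the only term, where the study used DESeq2, and p-values were adjusted by Benjamini-Hochberg at 0.05. CPM are counts over the TMM-scaled total of these genes, SEs come from the F statistic, and log2 CPM used a prior count of 2. Besides the 9 genes, Nr3c2, Hsd11b2, H6pd, Per1, Klf9, Dusp1, Mtf1, Slc30a1 and Hsp90ab1 were named in all cases, with up to 4 of the largest rises and falls that passed in each list and the 2 genes most like each of the 9. Cyp11b1, Cyp11b2, Mt3, Mt4 and single marker genes were named with their values known. The edgeR test was also tried on simulated data.

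Same-numbered libraries come from different animals, and the correlations of their deviations from group means were -0.08 to 0.05, so replicate numbers were not used as pairs. No 2 libraries of a genotype agreed within sampling noise. The labels do not say more than that samples are separate, so p-values measure the spread between these samples. The 19 alternatives were DESeq2 1.42.0, limma 3.58.1 (voom, and trend on the log2 values), other scalings and filters, the replicate block, a skeletal muscle score as covariate, and leaving out each library.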

Additional observations from a re-analysis of the deposited data

Results flagged for a closer look

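In 60 sets of 4 libraries, each of 1 gene in 1 genotype, 3 had a lowest or highest library set apart from the other libraries by more than 0.829 of the whole range, Dixon's limit for 4 values. Chance alone gives about 1 in 20. Fkbp5 stood at 27.7 CPM in db/db replicate 1, below 33.1 to 33.7 CPM in the other db/db libraries. Per1 stood at 43.0 CPM in WT replicate 2, above 25.5 to 27.4 CPM in the other WT libraries. Esr1 stood at 21.4 CPM in WT replicate 1, above 13.5 to 14.7 CPM in the other WT libraries.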

How the results depend on the processing

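Of 98 refits of the log2 fold changes of the 9 genes that kept all libraries, 92 kept direction and side of the threshold, 1 was lost, 4 passed newly and 1 turned, and of 72 that left out 1 library, 66 kept both, 4 passed newly and 2 turned. For the other genes named from the lists these numbers were 193, 12, 2 and 1 of 208, and 148, 2, 1 and 1 of 152. Mt2 kept its call under all of these except the skeletal muscle score as a covariate. Where a call changed, the cause was not tested.

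Of the 9 genes, 1 passed, and 4 passed when all genes of at least 1 count were tested (Hsd11b1, Fkbp5, Sgk1 and Mt2), 2 with the replicate block, 0 with the muscle score and 1 to 3 when 1 library was left out (3 without WT replicate 1, 2 without WT replicate 2 or db/db replicate 4). Among the other receptor targets 8 passed, 14 with all genes of at least 1 count, 11 with the replicate block, 2 with the muscle score and 8 to 12 when 1 library was left out (12 without db/db replicate 4). Among the chaperones and coregulators 1 passed, 2 in DESeq2, limma-trend, RLE, upper-quartile and library-total scaling, TMM without mitochondrial genes and the filter of 10 counts in every library, 3 in limma-voom, with all genes of at least 1 count and with the block, 0 with the muscle score and 1 to 3 when 1 library was left out (3 without WT replicate 3 or db/db replicate 2, 2 without WT replicate 2, db/db replicate 1 or 3). Of the steroid genes 3 passed, 0 with the muscle score and 3 to 4 when 1 library was left out. Of the zinc and metal genes 1 passed, 2 in limma-voom, limma-trend, with all genes of at least 1 count and with the block, 3 with 10 counts in every library, 0 with the muscle score and 1 to 3 when 1 library was left out (3 without WT replicate 3). Over all genes 2568 passed (1466 higher), 556 with the muscle score (408 higher), 2018 to 3170 under the other settings with all libraries and 2236 to 2483 when 1 library was left out. The muscle sums of the genotypes did not overlap, so that fit tells muscle and genotype apart only by the spread within genotypes.

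Replicate numbers name different animals. With the replicate block, Sgk1 passed at -0.90 (adjusted p = 0.00438), and the log2 ratio of Mt2 to Mt1 stayed at 1.47 with an exact p of 0.125, the smallest that 4 sign flips allow. Leaving out 1 library gave ratio differences of 1.18 to 1.74, with an exact p of 0.0286 when a WT library was left out and of 0.0571 when a db/db library was left out. Directions turned for Nr3c1 without WT replicate 1 (0.042, with a range of -0.27 to 0.042 when 1 library was left out), Errfi1 without db/db replicate 4 (-0.20, range -0.20 to 0.43), Zbtb16 with the muscle score (-0.40) and Per1 without WT replicate 2 (0.12, range -0.18 to 0.12) or with the muscle score (0.058). Mtf1 passed with 10 counts in every library (0.72, adjusted p = 0.0386), a filter that removed Errfi1 and Anxa1, and Dusp1 passed with all genes of at least 1 count (0.72, adjusted p = 0.00577). At these depths a gene at 3 counts or fewer was not distinguished from 0.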
